A study of Mus musculus with 12 samples.

Results

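The enzymes of fatty acid beta-oxidation were followed through the kidney cortex of mice with a diet- and toxin-induced liver disease. The set is a list of 35 enzymes and transfer proteins matched by gene symbol, of which 35 were found among the 11614 genes measured. By location, 19 belong to mitochondria, 12 to peroxisomes, and 4 (Crat, Eci2, Ech1 and Amacr) are found in both. RNA was sequenced from the cortex of C57BL/6J mice in 12 libraries, with 3 libraries in each of 4 groups. Mice with non-alcoholic steatohepatitis (NASH), a fatty and inflamed liver state, ate a Western diet and were given the liver toxin carbon tetrachloride for 24 or 12 weeks. Their controls ate a normal diet and were given corn oil, the usual carrier of that toxin, for the same times. The labels give 10 NASH and 8 control mice at 24 weeks and 6 NASH and 6 control mice at 12 weeks, as many male as female. Neither the sex of the animals in a given library, nor pooling, nor the time of day is stated, so p-values here measure only the spread between these libraries, which may be technical.

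Beta-oxidation shortens fatty acids by repeated cycles of dehydrogenation, hydration, a second dehydrogenation and thiolysis, and each cycle releases acetyl-CoA. Mitochondria oxidise long, medium and short chains for energy after transfer on carnitine, whereas peroxisomes shorten very long and branched chains and hand the products on. The proximal tubule, the main cell type of kidney cortex, relies on fatty acids as fuel and is rich in both organelles, and many of these enzymes are known targets of the nuclear receptor PPARα, which is active in fasting.

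Depth, estimated from the steps of the deposited values, ran between 7170000 and 14100000 reads per library. The proximal tubule markers Slc34a1, the phosphate transporter, at log2 16.33 to 16.93, and Lrp2, the endocytic receptor megalin, at 14.58 to 15.28, were high in all 12 libraries. A feature of the series touches nearly every result below. Replicate 1 of each group stood apart from replicates 2 and 3. Xist, the RNA of the inactive X chromosome, was at log2 10.6 to 11.5 in the 4 libraries numbered 1 and at 2.97 to 4.86 in the other 8, and the Y-linked helicase Ddx3y went the other way, with a replicate 1 difference of −5.72 ± 0.21 (SE). The Y-linked Eif2s3y, Kdm5d and Uty were also lower in each of the 4 libraries numbered 1 than in any of the other 8. By these sex-linked RNAs the 4 read as female and the 8 as male. What else the replicate numbers stand for is not in the labels, and the effects of sex, batch and any other property that goes with the number cannot be told apart. Changes are therefore given with all libraries, and also for replicate 1 and for replicates 2 and 3 apart, a split by time that was chosen after seeing the data. All values are deposited log2 values, and ± marks a standard error throughout. A gene is called where limma's test, adjusted over all 11614 genes, gives a p under 0.05.

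Start-site sequences are shown for 3 enzymes on which the results turn. Eci1, the mitochondrial enoyl-CoA isomerase (gene ID 13177, mm10 chr17:24426683-24439316, plus strand), and Decr2, the peroxisomal dienoyl-CoA reductase (gene ID 26378, chr17:26081211-26090164, minus strand), are the members whose change with time differed by replicate number. Hadhb (gene ID 231086, chr5:30155253-30184593, plus strand) encodes the beta subunit of the mitochondrial trifunctional protein and begins 272 bases from the start of the gene for its alpha subunit, Hadha (gene ID 97212, chr5:30118304-30154980, minus strand). Each RefSeq window holds 300 bases of GRCm38.p6, 250 before and 50 after the start, and lies at chr5:30155003-30155302 (plus strand) for Hadhb, chr17:24426433-24426732 (plus strand) for Eci1 and chr17:26090115-26090414 (minus strand) for Decr2. Capitals mark GC boxes, GGGCGG or its reverse complement CCGCCC.
Hadhb: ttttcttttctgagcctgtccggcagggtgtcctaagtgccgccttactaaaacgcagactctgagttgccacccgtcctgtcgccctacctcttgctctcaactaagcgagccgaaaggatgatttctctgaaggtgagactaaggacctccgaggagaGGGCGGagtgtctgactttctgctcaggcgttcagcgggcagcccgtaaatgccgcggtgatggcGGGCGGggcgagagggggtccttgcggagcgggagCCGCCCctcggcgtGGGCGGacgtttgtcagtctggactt
Eci1: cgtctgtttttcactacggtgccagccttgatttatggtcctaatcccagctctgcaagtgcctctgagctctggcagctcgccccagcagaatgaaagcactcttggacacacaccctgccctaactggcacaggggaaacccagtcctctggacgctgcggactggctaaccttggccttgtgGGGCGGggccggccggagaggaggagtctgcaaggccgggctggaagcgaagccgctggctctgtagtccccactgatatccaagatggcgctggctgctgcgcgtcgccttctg
Decr2: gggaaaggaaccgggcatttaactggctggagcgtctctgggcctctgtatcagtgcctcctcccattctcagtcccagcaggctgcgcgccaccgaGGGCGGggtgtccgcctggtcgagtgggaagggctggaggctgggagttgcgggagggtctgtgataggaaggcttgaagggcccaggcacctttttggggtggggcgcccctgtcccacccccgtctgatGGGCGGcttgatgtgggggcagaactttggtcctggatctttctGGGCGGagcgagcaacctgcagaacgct
The Hadhb window holds 4 GC boxes, the Eci1 window 1 and the Decr2 window 3. The windows of Hadhb and Hadha share 228 bases, chr5:30155003-30155230, so the upstream sequence of the 2 subunit genes is largely the same stretch read on opposite strands. GGGCGG, searched on both strands, occurred in 25 of the 31 member windows (80.6%), against 35.7% of all 32851 windows of that length. Those windows were not restricted to the genes measured here, and the share among measured genes was not computed. AGGTCA, the core hexamer bound by PPARα and related nuclear receptors and also searched on both strands, occurred in 7 member windows (22.6%), against 16.3% of all windows, and in 0 of the 3 shown. A direct repeat of that hexamer, spaced by 1 base, was also searched with up to 3 mismatches allowed. This repeat occurred in 7 member windows (22.6%), against 24.6% of all windows, and so was not more frequent among the members. A match is a string of letters and not a measured binding site.

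Levels of the members spanned a wide range, and nearly all were high. Per kilobase of transcript, Slc27a2, the very-long-chain acyl-CoA synthetase of peroxisomes, was the highest member in every group, at log2 14.71 per kilobase in NASH and 14.68 in control libraries at 24 weeks and 14.76 in NASH and 14.41 in control libraries at 12 weeks. Phyh, which hydroxylates the branched chain of phytanoyl-CoA, and Etfb, a subunit of the flavoprotein that takes up electrons from the dehydrogenases, ranked 2nd and 3rd on the mean of the 4 groups. Phyh was at 12.99, 12.91, 13.10 and 12.77 per kilobase and Etfb at 13.12, 12.98, 12.82 and 12.44 in the same order of groups. The order varied by group, since Ech1, at 13.04 in NASH and 13.20 in control libraries, ranked 3rd and 2nd at 24 weeks. Scp2, at 12.58, ranked 3rd in control libraries at 12 weeks. Acot8, a peroxisomal acyl-CoA thioesterase, was the lowest member in every group, at 8.39, 8.44, 8.19 and 7.52 per kilobase. Every member other than Acot8 lay at or above the 70.2 percentile of genes in every library. Ehhadh, the peroxisomal bifunctional enzyme, ranked 5th of 35 in both groups at 24 weeks and 10th and 11th in NASH and control libraries at 12 weeks. Eci1 ranked 16th in both groups at 24 weeks and 27th and 28th at 12 weeks.

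**Figure D1:**
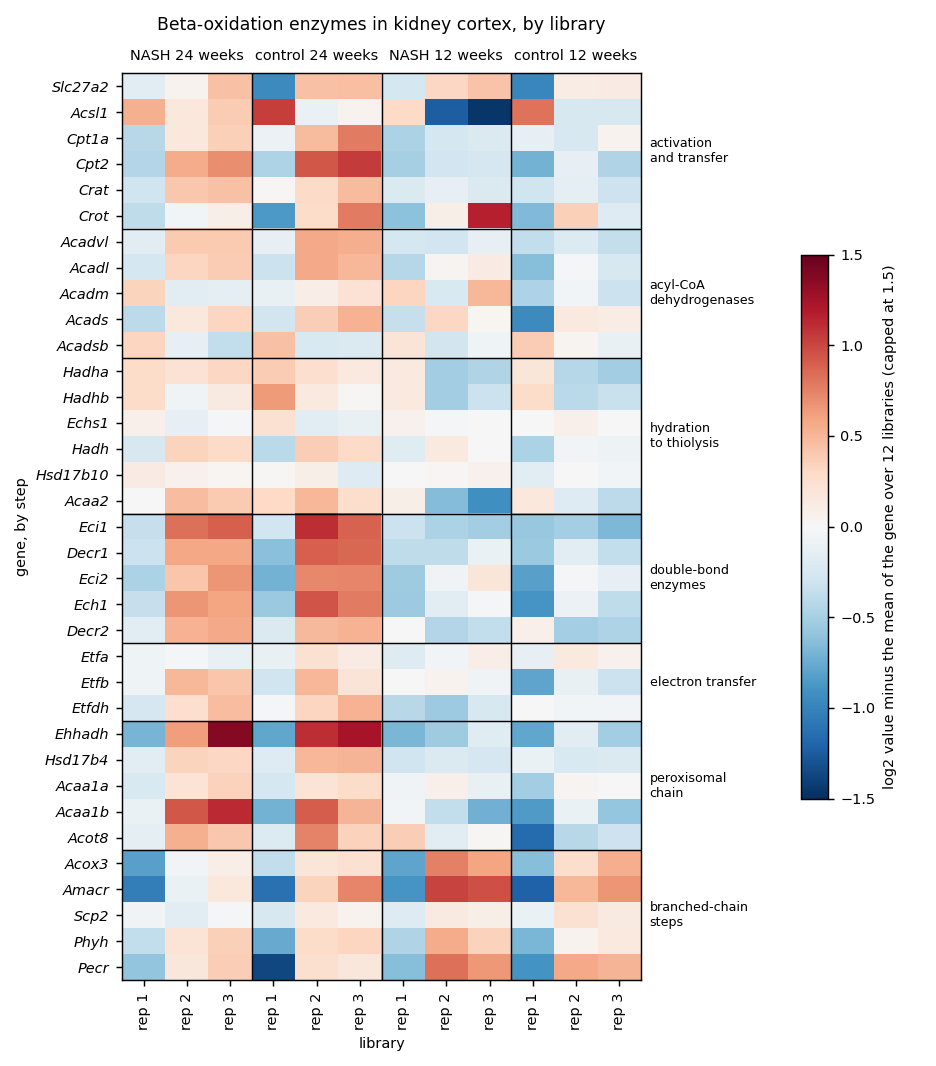
Level of each of the 35 members in each of the 12 libraries, drawn as the log2 difference from the gene's mean over all libraries (colour), with members in rows by step and libraries in columns by group. The 5 double-bond enzymes have their 4 highest values in replicates 2 and 3 at 24 weeks, in NASH and control alike, and Eci1 spans 10.06 to 11.84.

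NASH was first compared with control at 12 weeks, the earlier time of the disease model. The members showed little that exceeded the spread between replicates. In limma's fit of the 4 group means 0 of the 35 were called, where 0.0517% of all genes were, and 2 members had an unadjusted p under 0.05. With the replicate number as a block, which removes the offset of replicate 1, Acsl1 was the only member called, and it was lower in NASH. That fit called 12.9% of all genes, 3.01% higher and 9.85% lower.

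Acsl1, the long-chain acyl-CoA synthetase that activates fatty acids (gene ID 14081, chr8:46471037-46536051), was at 12.98, 11.45 and 11.22 in NASH and 13.50, 12.44 and 12.44 in control libraries at 12 weeks, in the order of replicates 1, 2 and 3 kept for all such values. Its NASH libraries were the lower of every pair with the same number, yet replicate 1 of NASH overlapped the controls. The difference was −0.91 ± 0.22 with the block, or 1.88-fold lower (limma adjusted p = 0.0283), and −0.91 ± 0.46 without it (adjusted p = 0.387). The call was lost on leaving out any of the 3 control libraries or NASH replicate 2 or 3 at 12 weeks (adjusted p = 0.0748 to 0.0866), on removing a GC and length trend (−0.76, adjusted p = 0.0938), and without the variance trend (adjusted p = 0.0524). In replicates 2 and 3 alone the difference was −1.11 and was called (adjusted p = 0.002, 3.31% of all genes called). At 24 weeks Acsl1 stood at 13.22, 12.84 and 13.07 in NASH and 13.72, 12.59 and 12.74 in control libraries, NASH being lower in replicate 1 and higher in replicates 2 and 3. The change of the NASH effect between the times, 0.94 ± 0.65 in the 4-group fit, was not called (adjusted p = 1, and 0.282 with the block). In replicates 2 and 3 alone it was 1.40 ± 0.18 and was called (adjusted p = 0.011, 0.629% of all genes called).

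The electron-transfer proteins lay on opposite sides at 12 weeks, none called in the deposited scaling. Etfb was at 12.66, 12.72 and 12.62 in NASH and 11.88, 12.56 and 12.35 in control libraries. Etfdh, which passes the electrons on to ubiquinone, was at 11.42, 11.29 and 11.59 in NASH and 11.84, 11.79 and 11.79 in control libraries. Neither gene's groups overlapped, Etfb lying higher and Etfdh lower in NASH, but neither was called, with 0.41 ± 0.13 for Etfb (adjusted p = 0.0655) and −0.37 ± 0.14 for Etfdh (adjusted p = 0.108) in the block fit. Acot8 was the other member whose libraries did not overlap, at 8.67, 8.14 and 8.32 in NASH and 7.15, 7.88 and 7.99 in control libraries (0.70 ± 0.24, adjusted p = 0.0793 with the block). Under median-of-ratios scaling Etfb was called as higher (0.49, adjusted p = 0.0428), which made the split of called members 1 higher and 1 lower. The 3 members of 35 without overlap compare with 22.5% of all genes whose NASH and control libraries did not overlap at 12 weeks.

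Further members with the smallest p-values of their compartment at 12 weeks were not called. Phyh differed by 0.31 ± 0.11 (adjusted p = 0.0927), Slc27a2 by 0.40 ± 0.20 (adjusted p = 0.192) and Amacr, the racemase that prepares branched chains, by 0.38 ± 0.16 (adjusted p = 0.133) with the block. The medium-chain dehydrogenase Acadm (gene ID 11364, chr3:153922353-153944643) was at 13.79, 13.24 and 13.96 in NASH and 13.00, 13.43 and 13.15 in control libraries, a difference of 0.47 ± 0.20 (adjusted p = 0.14), with replicate 2 against its direction. The differences were 0.21 ± 0.18 for Ech1, the dienoyl-CoA isomerase (adjusted p = 0.45), and 0.18 ± 0.16 for the isomerase Eci2 (adjusted p = 0.478). On the negative side Acaa2, the mitochondrial thiolase, was at −0.35 ± 0.22 (adjusted p = 0.313), and in replicates 2 and 3 alone with the block it was called lower (−0.49, adjusted p = 0.03). Differences were positive in 10 of 19 mitochondrial, 4 of 4 dual-located and 10 of 12 peroxisomal members, with a median of 0.10 over the 35 beside −0.08 over all genes. Median-of-ratios scaling, which raises all 12-week differences alike and takes the median of all genes to 0.01, turned 6 further members from negative to positive.

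Some markers of other cells also moved at 12 weeks. The summed hepatocyte markers were at log2 11.65 to 12.73 in NASH and 10.49 to 10.73 in control libraries, with Ttr (2.77 higher) and Apoa2 (1.12 higher) called with the block among the 9. The block fit called 12.9% of all genes. Ttr was the highest of the 9 in each NASH library, at 10.37, 12.60 and 12.40, against 7.22, 10.06 and 9.78 in control libraries. Apoa1 and Apoc3 were also higher in NASH in every pair with the same number. Fgb was lower in every such pair, and Alb, Fga, Ahsg and Serpina1a were mixed. Of the 9 collecting duct markers the water channel Aqp2 was 1.46 higher, Slc26a4 and Atp6v1g3 were lower in every pair with the same number, and the rest were mixed. The collecting duct sums overlapped, at 12.99 to 13.65 in NASH and 12.93 to 13.35 in control libraries. Of the 4 distal convoluted tubule markers Slc12a3 (−0.66) and Calb1 (−1.16) were lower, Trpm6 was lower in every pair, and Pvalb was mixed. Their part in the 12-week differences was not tested, and in tissue RNA fewer cells of a type cannot be told apart from less RNA per cell. Proximal tubule markers summed to 17.77 to 18.15 in NASH and 18.09 to 18.17 in control libraries.

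**Figure D2:**
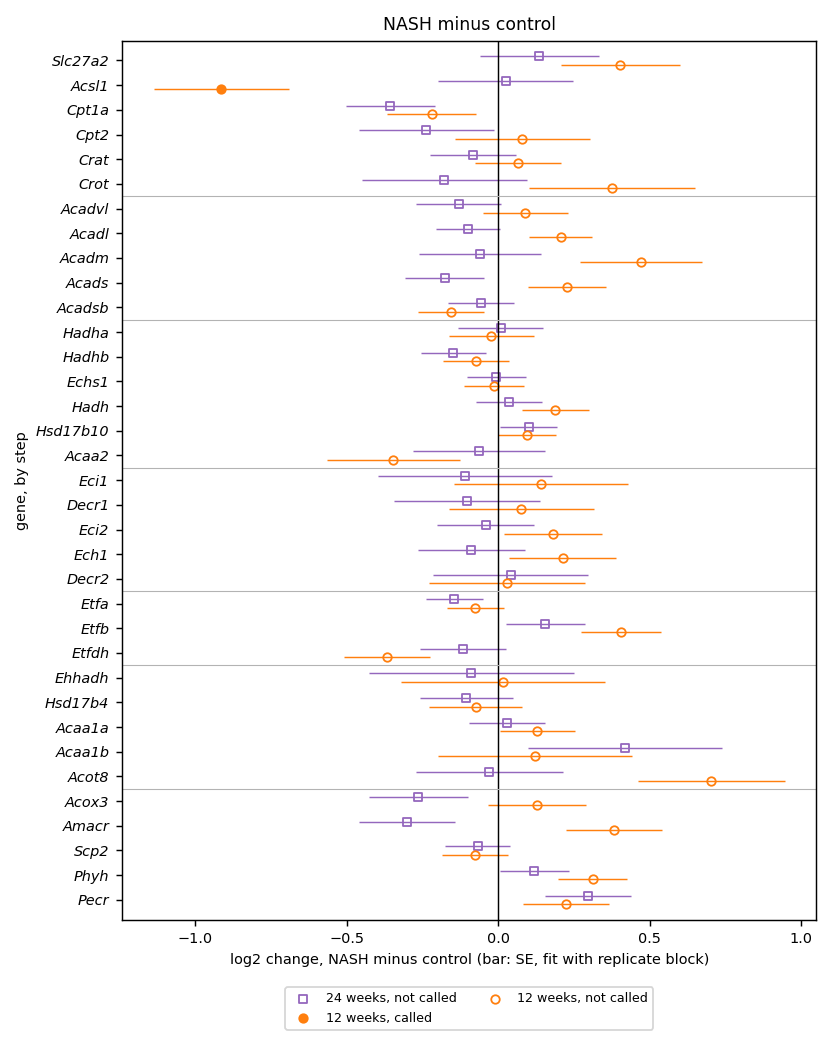
NASH minus control difference in log2 for each member at 24 weeks and 12 weeks, from the fit with the replicate number as a block, with the SE as a bar and filled marks for called members. Acsl1 at 12 weeks (−0.91) is the filled mark, and the remaining marks at both times are open.

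By 24 weeks no member was called between NASH and control in either fit. Of all genes, 0% were called in the 4-group fit and 0.00861% in the block fit, and at an unadjusted p under 0.05 the counts of members were 0 and 1. The member with the smallest p was Cpt1a, the carnitine palmitoyltransferase that controls entry of long chains into mitochondria (gene ID 12894, chr19:3323301-3385733). It was at 12.56, 13.14 and 13.33 in NASH and 12.89, 13.45 and 13.76 in control libraries. NASH was lower in 3 of 3 pairs, but the groups overlapped, and the difference was −0.36 ± 0.15 with the block (adjusted p = 0.479) and −0.36 ± 0.24 without it (adjusted p = 0.999). At 12 weeks Cpt1a had been at 12.50, 12.71 and 12.76 in NASH and 12.86, 12.74 and 13.03 in control libraries, with −0.22 ± 0.15 in the block fit.

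The remaining differences at 24 weeks were small in each compartment. In mitochondria Etfa, the partner subunit of Etfb, differed by −0.14 ± 0.09 (adjusted p = 0.638) and Hadhb by −0.15 ± 0.11 (adjusted p = 0.676) with the block. In peroxisomes Pecr, the enoyl-CoA reductase, differed by 0.30 ± 0.14 (adjusted p = 0.534), the branched-chain oxidase Acox3 by −0.26 ± 0.16 (adjusted p = 0.62) and the thiolase Acaa1b by 0.42 ± 0.32 (adjusted p = 0.688). Among dual-located members Amacr differed by −0.30 ± 0.16 (adjusted p = 0.567), and Crat, which moves acetyl groups onto carnitine, by −0.08 ± 0.14 (adjusted p = 0.881), with Ech1 at −0.09 ± 0.18 (adjusted p = 0.902). Differences were positive in 11 of the 35, with a median of −0.07 beside 0.01 over all genes. No member's NASH and control libraries were free of overlap, as they were for 7.22% of all genes.

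The difference of the NASH effects between 24 and 12 weeks was called for 0 members in the 4-group and block fits (0 members and 2 members at an unadjusted p under 0.05, with 0% and 0.00861% of all genes called), and the 3 smallest p-values in the block fit were those of Amacr at −0.68 ± 0.23 (adjusted p = 0.275), Acsl1 at 0.94 ± 0.32 (adjusted p = 0.282) and Acads, the short-chain dehydrogenase, at −0.40 ± 0.18 (adjusted p = 0.392). Below them came Acadl at −0.31 ± 0.15, Ech1 at −0.30 ± 0.25, Eci2 at −0.22 ± 0.23, Acot8 at −0.73 ± 0.34, Acox3 at −0.39 ± 0.23 and Crot, the peroxisomal carnitine octanoyltransferase, at −0.55 ± 0.39. Averaged over both times, the NASH effect was likewise called for 0 members (0 and 6 at an unadjusted p under 0.05, with 0% and 10.4% of all genes called), with Etfb at 0.28 ± 0.09 (adjusted p = 0.0768 with the block) and Acsl1 at −0.44 ± 0.16 (adjusted p = 0.0929). In that average Cpt1a was at −0.29 ± 0.10, Phyh at 0.22 ± 0.08, Pecr at 0.26 ± 0.10 and Acot8 at 0.34 ± 0.17, and the dual-located Eci2, Ech1 and Amacr lay between 0.04 and 0.07.

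More members were called between the times than between NASH and control, but only once replicate 1 was fitted apart from replicates 2 and 3. Over all 3 replicates, 24 weeks against 12 weeks gave 0 called members in NASH and 0 in control mice with limma, with or without the block. The 4-group fit called 0% of all genes in either group of mice, and the block fit 0.0258% in NASH and 0.172% in control mice. At an unadjusted p under 0.05 there were 7 members in NASH and 8 in control mice in the 4-group fit, and 19 and 20 with the block. The smallest p-values in the 4-group fit belonged to Acaa2 in NASH mice (0.77 ± 0.24, adjusted p = 0.958), and to Acadvl, the very-long-chain dehydrogenase, in control mice (0.64 ± 0.20, adjusted p = 0.49). With the block the smallest were those of Acsl1 in NASH mice (1.16 ± 0.22, adjusted p = 0.106) and Acadl, the long-chain dehydrogenase, in control mice (0.54 ± 0.10, adjusted p = 0.0604). In NASH mice Hadha (0.55 ± 0.14), Etfdh (0.55 ± 0.14), Amacr (−0.69 ± 0.16), Ech1 (0.54 ± 0.18), Crat (0.37 ± 0.14), Acaa1b (1.03 ± 0.32), Hsd17b4 (0.42 ± 0.15) and Acox3 (−0.44 ± 0.16) came next within their compartments, with adjusted p up to 0.345. In control mice Acadvl (0.64 ± 0.14), Cpt2 (0.94 ± 0.22), Ech1 (0.84 ± 0.18), Crat (0.52 ± 0.14), Eci2 (0.56 ± 0.16), Acot8 (0.92 ± 0.24), Ehhadh (1.01 ± 0.34) and Hsd17b4 (0.45 ± 0.15) did so, with adjusted p up to 0.149. Median changes were 0.29 in NASH and 0.44 in control mice, beside 0.02 and −0.08 over all genes.

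In replicates 2 and 3, averaged over NASH and control, 22 of the 35 members differed between the times, 20 higher and 2 lower at 24 weeks, where the same fit called 8.13% of all genes (3.22% higher and 4.91% lower). The 20 comprised 13 of 19 mitochondrial, 3 of 4 dual-located and 4 of 12 peroxisomal members, and the median change was 0.51 beside −0.07 over all genes. In replicate 1, with 2 libraries at each time instead of 4, the same comparison called 0 of the 35 and 0% of all genes. Fewer libraries make a call harder to reach, so the 0 does not show an absence of change. In replicate 1, 1 member had an unadjusted p under 0.05, and member changes ran between −0.23 and 0.32. At 24 weeks 22 members were higher and 2 lower (Acox3 and Pecr) in all 4 libraries numbered 2 or 3 than in any of their 4 counterparts at 12 weeks, where 12.7% of all genes had no overlap (4.96% higher and 7.74% lower). The test of the difference between the 2 time changes called 2 members, Eci1 and Decr2, against 0.121% of all genes, and 19 members had an unadjusted p under 0.05 in it. Both calls were lost without the variance trend (adjusted p = 0.0588 for each), and 4 members were called on leaving out replicate 2 of the 12-week controls.

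The auxiliary enzymes that deal with double bonds of unsaturated fatty acids rose together in replicates 2 and 3, 5 of 5 called. Eci1 was at 10.39, 11.56 and 11.63 in NASH and 10.45, 11.84 and 11.62 in control libraries at 24 weeks, and at 10.41, 10.26 and 10.21 in NASH and 10.16, 10.22 and 10.06 in control libraries at 12 weeks. Only replicates 2 and 3 at 24 weeks exceeded 11, and their lowest value lay more than a log2 unit above the highest of the other 8 libraries. The rise in replicates 2 and 3 was 1.47 ± 0.08, or 2.77-fold (limma adjusted p = 2.06e-05), beside 0.13 ± 0.11 in replicate 1, and the difference between them was 1.34 ± 0.14 (adjusted p = 0.00468). Decr2 was at 10.28, 10.98 and 11.02 in NASH and 10.24, 10.94 and 10.98 in control libraries at 24 weeks, and at 10.45, 10.01 and 10.09 in NASH and 10.53, 9.95 and 9.99 in control libraries at 12 weeks. Replicate 1 was thus the lowest of its group at 24 weeks and the highest at 12 weeks, in NASH and control alike. Decr2 rose by 0.97 ± 0.07 in replicates 2 and 3 (adjusted p = 0.000115), was −0.23 in replicate 1, and differed between them by 1.20 ± 0.12 (adjusted p = 0.00468).

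The other 3 enzymes of this step followed in replicates 2 and 3. Decr1, the mitochondrial dienoyl-CoA reductase, rose by 0.98 ± 0.12 (adjusted p = 0.00133), Ech1 by 0.91 ± 0.10 (adjusted p = 0.00121) and Eci2 by 0.64 ± 0.10 (adjusted p = 0.00553). Decr1 was at 11.75, 12.65 and 12.65 in NASH and 11.45, 12.97 and 12.94 in control libraries at 24 weeks, and at 11.69, 11.69 and 11.97 in NASH and 11.52, 11.90 and 11.71 in control libraries at 12 weeks, so replicate 1 at 24 weeks lay within the range of the 12-week libraries or just under it. All 5 calls of this step held under every alternative scaling, filter, variance setting and left-out library tried.

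**Figure D3:**
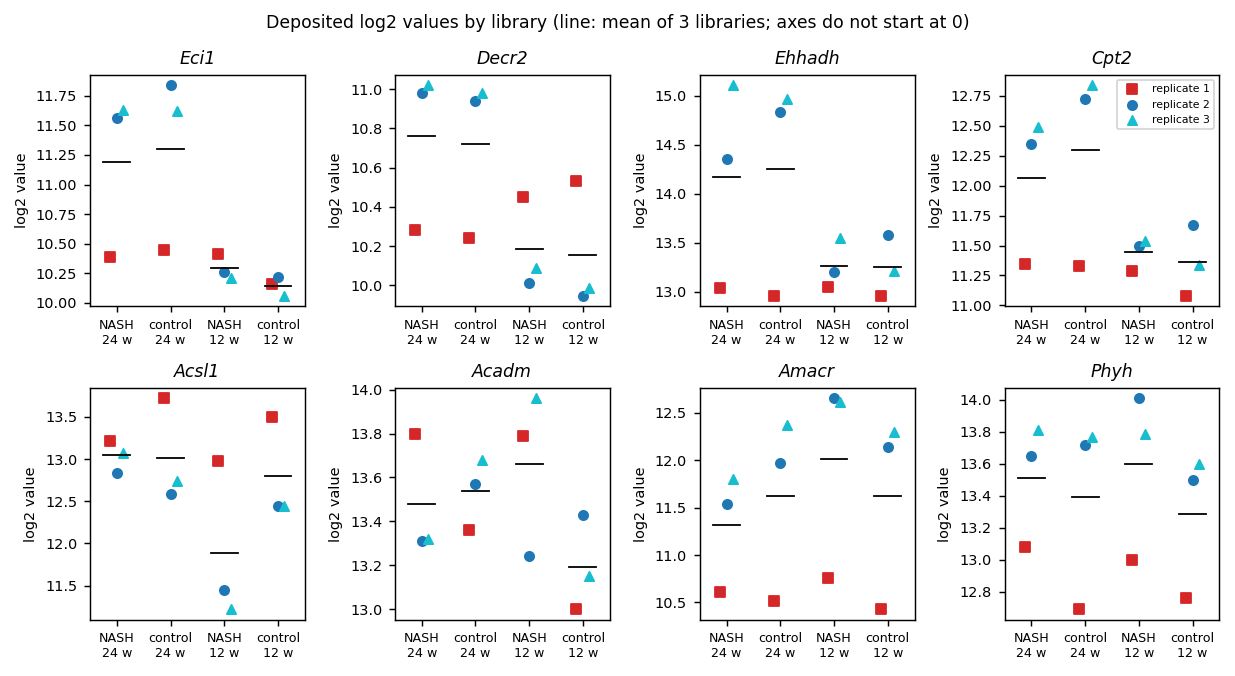
Deposited log2 values of 8 members in the 12 libraries, one panel a gene, with groups along the axis from NASH and control at 24 weeks to NASH and control at 12 weeks and a mark for each replicate number. In the Eci1 and Decr2 panels replicates 2 and 3 both lie above replicate 1 at 24 weeks but not at 12 weeks, and in the Ehhadh, Cpt2, Amacr and Phyh panels they do so at both times.

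Among the enzymes of activation and transfer 4 of 6 rose in replicates 2 and 3. Cpt2, the inner-membrane carnitine palmitoyltransferase (gene ID 12896, chr4:107903982-107923589), was at 11.35, 12.35 and 12.49 in NASH and 11.33, 12.72 and 12.84 in control libraries at 24 weeks, and at 11.29, 11.50 and 11.54 in NASH and 11.08, 11.67 and 11.34 in control libraries at 12 weeks. The 4 replicate 1 libraries lay between 11.08 and 11.35, all under the 4 libraries numbered 2 or 3 at 24 weeks. Cpt2 rose by 1.09 ± 0.10, or 2.12-fold, in replicates 2 and 3 (adjusted p = 0.000522), with 0.16 ± 0.15 in replicate 1. Cpt1a rose by 0.61 ± 0.08 (adjusted p = 0.00214) and Crat by 0.60 ± 0.09 (adjusted p = 0.00388). Slc27a2 and Crot were not called, at 0.10 ± 0.17 and −0.08 ± 0.24.

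Acsl1 rose by 0.92 ± 0.15 in replicates 2 and 3 (adjusted p = 0.00681), but unequally in the 2 conditions. Within replicates 2 and 3 alone the 24-week libraries were 1.62 above the 12-week ones in NASH mice and 0.22 above them in control mice, the second not called (adjusted p = 0.308). The NASH libraries numbered 2 and 3 at 12 weeks, 11.45 and 11.22, were the lowest of all 12.

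Of the acyl-CoA dehydrogenases, which open each cycle, the 2 that act on the longest chains rose in replicates 2 and 3. Acadvl rose by 0.71 ± 0.08 (adjusted p = 0.000834) and Acadl by 0.46 ± 0.08 (adjusted p = 0.00986), the second not called without replicate 3 of the 12-week controls (adjusted p = 0.0531). Acads, at 0.19 ± 0.11, and Acadsb, which acts on short branched chains, at −0.14, were not called. Acadm was at 13.80, 13.31 and 13.32 in NASH and 13.36, 13.57 and 13.68 in control libraries at 24 weeks. Replicate 1 was the highest of the NASH libraries and the lowest of the control libraries there, and the change in replicates 2 and 3 was 0.02 ± 0.18 (adjusted p = 0.949).

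In the later mitochondrial steps 4 of 6 members rose in replicates 2 and 3. Hadha was at 12.17, 12.11 and 12.21 in NASH and 12.28, 12.15 and 12.04 in control libraries at 24 weeks, and at 12.04, 11.37 and 11.44 in NASH and 12.08, 11.47 and 11.37 in control libraries at 12 weeks. Replicate 1 held nearly the same level at both times, and it was replicates 2 and 3 at 12 weeks that were low. Hadha rose by 0.71 ± 0.08 (adjusted p = 0.000832) and Hadhb by 0.46 ± 0.09 (adjusted p = 0.0128), the Hadhb call being lost on leaving out either 12-week control, 24-week control replicate 2 or 24-week NASH replicate 3 (adjusted p = 0.0508 to 0.0588). The 2 subunits stayed close in each library, Hadha minus Hadhb running between −0.31 and 0.21. Acaa2, which ends the cycle, was at 12.46, 12.93 and 12.86 in NASH and 12.77, 12.96 and 12.73 in control libraries at 24 weeks, and at 12.56, 11.82 and 11.55 in NASH and 12.63, 12.27 and 12.07 in control libraries at 12 weeks, a rise of 0.94 ± 0.10 in replicates 2 and 3 (adjusted p = 0.000832). Hadh, the short-chain hydroxyacyl-CoA dehydrogenase, rose by 0.32 ± 0.08 (adjusted p = 0.0363), a call lost on leaving out any of these 8 libraries (adjusted p = 0.0585 to 0.122). Echs1, the short-chain hydratase, and Hsd17b10, which acts on short branched chains, were not called, at −0.12 and −0.01. In electron transfer, Etfdh rose by 0.60 ± 0.08 (adjusted p = 0.00197) and Etfb by 0.51 ± 0.10 (adjusted p = 0.0166), while Etfa was at −0.01. The Etfb call was lost without 24-week control replicate 2, 12-week NASH replicate 3 or 24-week NASH replicate 3 (adjusted p = 0.0637 to 0.0743).

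In the peroxisomal chain 3 of 5 members rose in replicates 2 and 3. Ehhadh (gene ID 74147, chr16:21761285-21787834) was at 13.04, 14.36 and 15.11 in NASH and 12.96, 14.84 and 14.97 in control libraries at 24 weeks, and at 13.05, 13.20 and 13.55 in NASH and 12.96, 13.58 and 13.21 in control libraries at 12 weeks. Replicates 2 and 3 at 24 weeks were the 4 highest libraries, and replicate 1 held 12.96 to 13.05 throughout. The rise was 1.43 ± 0.15 in replicates 2 and 3, or 2.70-fold (adjusted p = 0.000832), while the difference from replicate 1, also 1.43 ± 0.26, was not called (adjusted p = 0.0932). Acaa1b (gene ID 235674, chr9:119148043-119157093) was at 11.87, 12.90 and 13.08 in NASH and 11.26, 12.87 and 12.47 in control libraries at 24 weeks, and at 11.92, 11.59 and 11.24 in NASH and 11.12, 11.87 and 11.39 in control libraries at 12 weeks. It rose by 1.31 ± 0.17 (adjusted p = 0.00214), and its near-identical neighbour Acaa1a (gene ID 113868, chr9:119341294-119350295) was not called at 0.26 ± 0.10 (adjusted p = 0.157). Reads shared by these paralogs could have been split either way, so their separate values are uncertain. Hsd17b4, the other bifunctional enzyme, rose by 0.64 ± 0.08 (adjusted p = 0.00133), and Acot8 was at 0.72 ± 0.20, just short of a call (adjusted p = 0.0503). Acot8 was called higher under median-of-ratios scaling (adjusted p = 0.0272), quantile normalization (0.0251) and a GC and length trend removed (0.044). It was also called on leaving out replicate 1 of the 12-week control (0.00788) or NASH group (0.00825).

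Of the 5 branched-chain enzymes 0 rose and 2 fell in replicates 2 and 3. Amacr (gene ID 17117, chr15:10981756-10996624) was at 10.61, 11.54 and 11.80 in NASH and 10.52, 11.97 and 12.37 in control libraries at 24 weeks, and at 10.76, 12.65 and 12.61 in NASH and 10.43, 12.14 and 12.30 in control libraries at 12 weeks. It fell by 0.50 at 24 weeks in replicates 2 and 3 (SE 0.11, adjusted p = 0.0246), with control libraries at 12 and 24 weeks overlapping. Acox3 fell by 0.43 (SE 0.10, adjusted p = 0.0351). With the conditions fitted apart in replicates 2 and 3 alone, both were called lower in NASH mice and neither in control mice. The NASH changes were −0.96 for Amacr (limma adjusted p = 0.00589) and −0.65 for Acox3 (adjusted p = 0.0173). The difference between the conditions was not called for either. The averaged calls of both were lost under median-of-ratios scaling, at adjusted p = 0.0585 for Amacr and 0.104 for Acox3. They were also lost without the variance trend (adjusted p = 0.061 and 0.077). Leaving out single libraries numbered 2 or 3 lost them in several cases (adjusted p = 0.0574 to 0.0917 for Amacr and 0.0717 to 0.117 for Acox3). Pecr was at −0.40 ± 0.12 (adjusted p = 0.0746), and Phyh (0.01) and the thiolase Scp2 (−0.14) were not called. Pecr was called lower with a GC and length trend removed (adjusted p = 0.0439). Leaving out replicate 1 of the 24-week control (0.0192) or NASH group (0.0194) gave that call too.

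NASH and control mice were also fitted apart within replicates 2 and 3. In NASH mice 14 members were called higher and 2 lower at 24 weeks, where 4.66% of all genes were called (2.51% higher and 2.14% lower), and in control mice 18 were higher and 0 lower, where 6.5% of all genes were called (2.33% higher and 4.17% lower). Eci1 rose by 1.36 in NASH and 1.58 in control mice, Ehhadh by 1.36 and 1.51, Cpt2 by 0.90 and 1.28, and Decr2 by 0.95 and 0.99. Among members, the difference between these changes was called for Acsl1 alone. Over the same libraries the summed endothelial markers were at log2 11.02 to 11.48 at 24 weeks and 11.44 to 12.22 at 12 weeks, with 3 of 5 called lower (Kdr −0.92, Emcn −0.86 and Pecam1 −0.59). Of the proximal tubule markers 2 of 11 were higher (Slc13a3 0.62 and Slc22a8 0.67), and their sum was at 17.91 to 18.07 at 24 weeks and 17.77 to 18.17 at 12 weeks. Adipocyte markers summed to 9.58 to 11.21 at 24 weeks and 8.65 to 10.01 at 12 weeks with 0 of 8 called, 2 at an unadjusted p under 0.05, and a median of 1.88. Also lower were 1 of 4 distal convoluted tubule markers (Calb1 −0.90), 1 of 9 collecting duct markers (Foxi1 −0.56) and 1 of 9 hepatocyte markers (Ttr −1.89), and the 4 loop of Henle markers had a median of −0.56 with 0 called and 1 at an unadjusted p under 0.05. The averaged fit behind these marker calls called 8.13% of all genes, 3.22% higher and 4.91% lower. The part of any of these markers in the time changes was not tested.

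**Figure D4:**
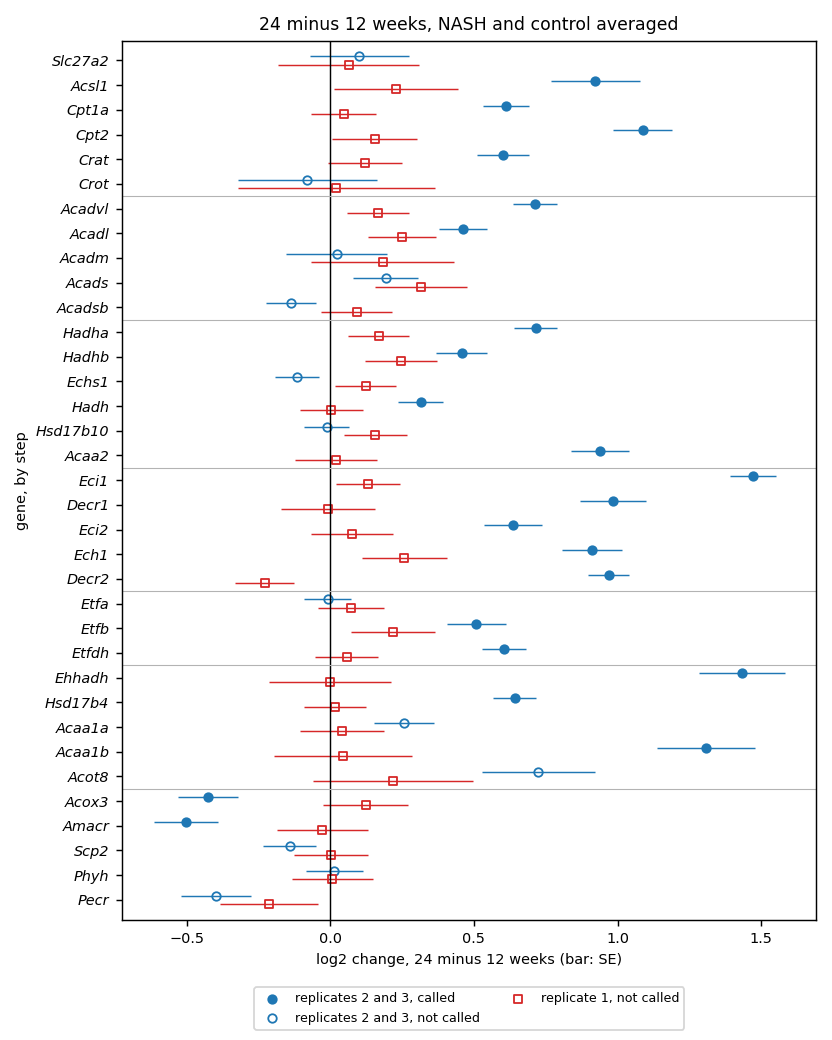
Change in log2 at 24 weeks against 12 weeks for each member, averaged over NASH and control, in replicates 2 and 3 (circles) and in replicate 1 (squares), with the SE as a bar and filled marks for called members. All 5 double-bond enzymes have filled circles between 0.64 and 1.47, and every square is open.

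Replicate 1 was compared with replicates 2 and 3 because earlier results of these data showed it apart, so these tests are not independent of the observation that prompted them. Over both times, with group means and replicate number in the fit, 25 of the 35 were called, 21 lower and 4 higher in replicate 1. The background was high, since 47.3% of all genes were called, but it ran the other way, with 37.3% higher and 9.98% lower. The median change was −0.43 over the members and 0.20 over all genes. Median-of-ratios scaling, which takes that shift of all genes to 0.00, gave 27 lower and 3 higher members. All 12 peroxisomal members had negative differences under the deposited, median-of-ratios and quantile scalings, 8 of them called under the deposited scaling, and all 4 dual-located members were called lower. Of the 19 mitochondrial members 9 were lower and 4 higher.

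The branched-chain enzymes of peroxisomes were lower in replicate 1, 5 of 5 called, although the small Scp2 difference (−0.22) lost its call in most alternatives. Amacr had the largest difference, −1.59 ± 0.12, or 3.01-fold lower (limma adjusted p = 7.14e-06), with all 4 replicate 1 libraries between 10.43 and 10.76 and the other 8 at 11.54 or above. Pecr was at 11.89, 12.65 and 12.86 in NASH and 11.12, 12.73 and 12.65 in control libraries at 24 weeks, and at 11.85, 13.31 and 13.13 in NASH and 11.59, 13.05 and 12.99 in control libraries at 12 weeks, with no overlap between numbers and a difference of −1.30 ± 0.11 (adjusted p = 1.28e-05). Acox3 was lower at −0.98 ± 0.12 and Phyh at −0.85 ± 0.09 (adjusted p = 4.67e-05). Amacr, Acox3, Pecr and Phyh were also called lower at each time apart, and Scp2 was not (−0.15 ± 0.11 at 24 weeks and −0.29 ± 0.11 at 12 weeks). Amacr was at −1.35 ± 0.14 at 24 weeks (adjusted p = 0.000168) and −1.83 ± 0.14 at 12 weeks (adjusted p = 2.24e-05).

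In activation and transfer the directions were opposite. Acsl1 was 2.01-fold higher in replicate 1, at a mean of 13.35 in replicate 1 and 12.35 in the other libraries (SE of the log2 difference 0.17, adjusted p = 0.000957), whereas Slc27a2 (−0.89), Crot (−0.94), Cpt2 (−0.79), Cpt1a (−0.41) and Crat (−0.30) were lower. The Crat call was lost without the variance trend (adjusted p = 0.0633) and on leaving out any of 8 libraries (adjusted p = 0.0509 to 0.188), with −0.16 where replicate 1 of the 24-week NASH group was dropped, and that of Cpt1a without replicate 1 of either 24-week group (adjusted p = 0.054 and 0.0613). Slc27a2 was at 15.62, 15.83 and 16.21 in NASH and 14.82, 16.21 and 16.23 in control libraries at 24 weeks, and at 15.51, 16.09 and 16.20 in NASH and 14.80, 15.89 and 15.90 in control libraries at 12 weeks, with no library numbered 1 reaching any other. Also higher in replicate 1 were Acadsb (0.51 ± 0.08, adjusted p = 0.000784), Hadhb (0.50 ± 0.08, adjusted p = 0.000814) and Hadha (0.37 ± 0.11, adjusted p = 0.0149), and the Hadha call was lost under median-of-ratios scaling (0.18, adjusted p = 0.254). Without overlap over all 12 libraries were Hadhb and Acadsb on the higher side and 11 members on the lower side, beside 19.2% of all genes (15% higher and 4.21% lower).

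Taken at each time, replicate 1 was lower in 25 members and higher in 4 at 24 weeks, where 38% of all genes were called (30.9% higher and 7.15% lower), and lower in 11 and higher in 6 at 12 weeks, where 22% were (15.7% higher and 6.32% lower). Median-of-ratios scaling, which removes a shift of all genes of 0.24 at 24 weeks and 0.16 at 12 weeks, gave 28 lower and 1 higher at 24 weeks and 16 lower and 5 higher at 12 weeks. Ehhadh was lower by 1.82 (SE 0.18, adjusted p = 0.000162), Eci1 by 1.24 (SE 0.10, adjusted p = 2.86e-05) and Cpt2 by 1.26 (SE 0.13, adjusted p = 0.000167) at 24 weeks, on the log2 scale, and at 12 weeks none of the 3 was called under the deposited scaling, although replicate 1 of Cpt2 and Ehhadh lay below all other 12-week libraries and Cpt2 was called lower under median-of-ratios scaling (−0.47, adjusted p = 0.0263). Decr2 was lower in replicate 1 at 24 weeks and higher at 12 weeks, where its difference was 0.48 ± 0.09 (adjusted p = 0.00453). These comparisons use the same libraries as those of the 2 times and are not separate evidence. Leaving out replicate 1 of the 24-week controls cut the 29 calls at 24 weeks to 18, and leaving out replicate 1 of the 12-week controls cut the 17 at 12 weeks to 8.

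Cell-type markers differed with the replicate number as well. Higher in replicate 1 over both times were 5 of 5 podocyte, 5 of 5 endothelial, 4 of 4 distal convoluted tubule, 3 of 4 loop of Henle and 7 of 9 collecting duct markers. The same fit called 37.3% of all genes higher and 9.98% lower, and the proximal tubule counts below lie near those shares. Of the 11 proximal tubule markers 5 were higher and 1 lower, and their sum was at log2 18.01 to 18.10 in replicate 1 at 24 weeks and 17.91 to 18.07 in replicates 2 and 3, and at 18.11 to 18.17 in replicate 1 at 12 weeks and 17.77 to 18.17 in replicates 2 and 3. Podocyte markers summed to 13.59 to 13.80 in replicate 1 at 24 weeks and 12.10 to 12.56 in replicates 2 and 3. The adipocyte sum reached 14.42 in replicate 1 of the 24-week controls, while the lowest of the controls of that time was at 10.65. The part of these markers in the replicate difference was not tested.

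**Figure D5:**
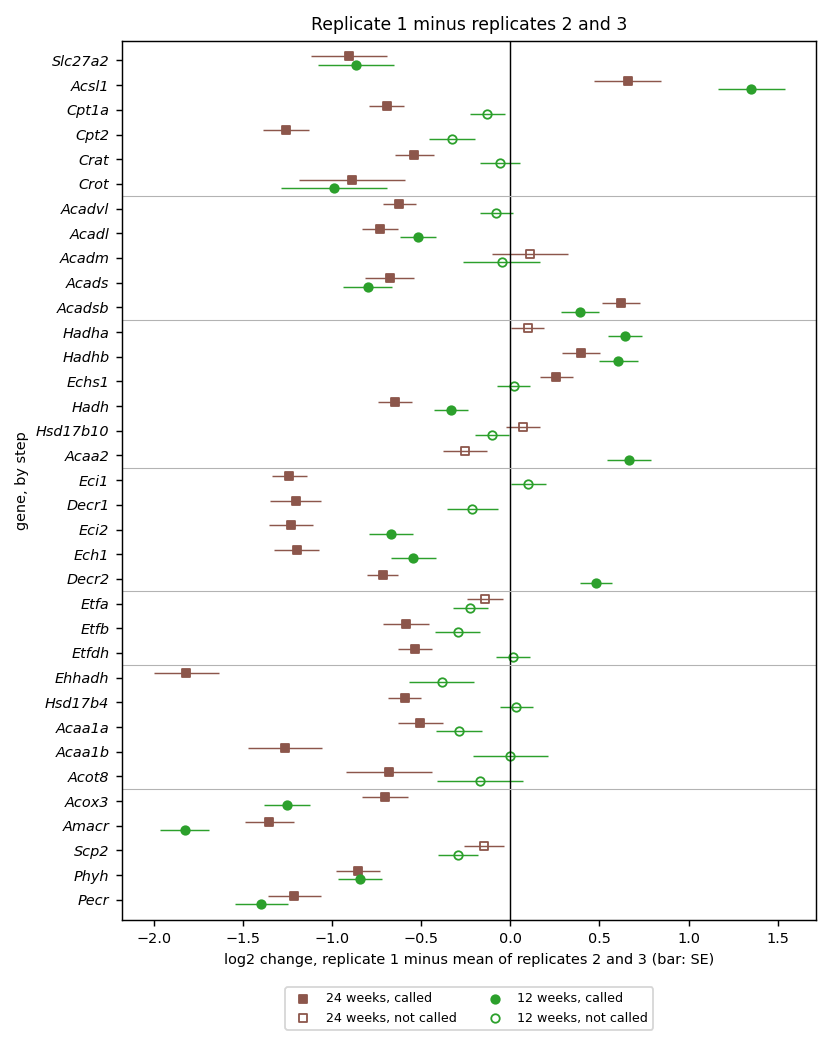
Replicate 1 minus the mean of replicates 2 and 3 in log2 for each member at 24 weeks (squares) and 12 weeks (circles), with the SE as a bar and filled marks for called members. Amacr and Pecr lie at −1.21 or lower at both times, Acsl1 lies above 0 at both, and the squares of Ehhadh, Eci1 and Cpt2 lie well to the left of their circles.

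Other genes around beta-oxidation were read from 6 lists taken with earlier results in view, 122 entries in all. Genes such as Mlycd and Acat1 stand in more than a single list and are counted in each. At 24 weeks 21 of them were higher and 5 lower in replicates 2 and 3, and the difference from replicate 1 was called for 3, where these tests called 8.13% and 0.121% of all genes. At 24 weeks in replicates 2 and 3, 7 of 24 genes of fatty acid entry were higher and 1 lower, among them Slc25a20, the carnitine-acylcarnitine carrier of the inner membrane (1.24 ± 0.12, adjusted p = 0.000489), Slc27a1 (1.43 ± 0.15, adjusted p = 0.000832) and Fabp1, the liver-type fatty acid binding protein (3.23 ± 0.40, adjusted p = 0.00162). Fabp1 was low in these replicates at 12 weeks, at 3.29 and 5.41 in NASH and 4.27 and 4.25 in control libraries, so the size of its change rests on few reads. Of 25 other mitochondrial acyl-CoA genes 2 were higher, the thioesterase Acot2 by 2.16 ± 0.09 (adjusted p = 2.89e-06), which exceeded its change in replicate 1 by 1.95 ± 0.15 (adjusted p = 0.00176), and Acad11 by 0.52 ± 0.07 (adjusted p = 0.00279). Of 30 other peroxisomal genes 7 were higher and 2 lower, with Abcd3, a fatty acid transporter of the peroxisomal membrane, at 0.62 ± 0.08 (adjusted p = 0.00238). Of 15 peroxisome assembly genes Pex11a (1.18 ± 0.14, adjusted p = 0.00133) and Pex14 (0.56 ± 0.09) were higher. In replicate 1 limma called 0 of the 122 entries of the 6 lists, 4 of which had an unadjusted p under 0.05.

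Regulatory and ketone genes were read in the same way. Pdk4, which restrains glucose oxidation when fat is burned, was at 8.81, 11.05 and 12.31 in NASH and 10.38, 11.92 and 12.00 in control libraries at 24 weeks, and at 8.90, 7.84 and 7.38 in NASH and 8.47, 7.79 and 7.52 in control libraries at 12 weeks. It rose by 4.19 ± 0.28, or 18.2-fold, in replicates 2 and 3 (adjusted p = 7.05e-05), and the difference from replicate 1 was called too (3.28 ± 0.49, adjusted p = 0.043). Of 7 ketone genes Oxct1, which uses ketones, fell by 0.62 (SE 0.11, adjusted p = 0.00967), and of 21 regulators Ppara, the gene of PPARα, rose by 0.60 ± 0.16 (adjusted p = 0.0485) and Rxrg fell by 1.16 (SE 0.25, adjusted p = 0.0214).

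Between NASH and control at 12 weeks, with the block, 6 of the 122 were higher and 4 lower, a smaller share than the 12.9% of all genes called. Nudt19, a peroxisomal CoA hydrolase, was higher (1.30, adjusted p = 0.0039), as were Slc22a4 (0.59, adjusted p = 0.0176) and the peroxin Pex16 (0.56), while the regulator Ppard was lower (−1.99 ± 0.38, adjusted p = 0.0136). At 24 weeks limma's block fit called 0 genes of these 6 lists (17 of 122 at an unadjusted p under 0.05), and the 4-group fit called 0 at either time (4 at 24 weeks and 14 at 12 weeks). With the replicate number, 24 entries were higher and 32 lower in replicate 1, Mlycd and Acat1 being counted among the lower in more than a single list. The same fit called 47.3% of all genes (37.3% higher and 9.98% lower). Acsm3, a medium-chain acyl-CoA synthetase, was lower by 5.64 on the log2 scale in replicate 1 (SE 0.25).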

How the data were processed

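RNA-seq of 12 kidney cortex libraries was taken as deposited. The authors deposited 1 log2 value per gene and library, normalized per the file headers. BWA, limma and build mm10 are named per the submitters' processing notes, without role or version, and the counting and its use of strand are not given in the sources used here. The steps of low values (85.6% to 91.5% whole within 0.01 steps) gave library factors of 1.00 to 1.96 and the estimated read numbers, which limit only counting error. Starts were raised by 1 to print coordinates from 1.

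The 35 members and all lists were chosen with earlier results of these data known. The log2 values were fitted with limma 3.58.1 in R 4.3.3 as means of 4 groups over 12 libraries, with a mean-variance trend, 2-sided tests and Benjamini-Hochberg adjustment over 11614 genes, and called at an adjusted p under 0.05. The 12 libraries share one estimate of the spread. Full statistics are given for members called in the fit without or with the replicate block, otherwise for the smallest p-values of each compartment. Cpt1a, Acadm, Hadha, Ehhadh and Acaa1b are always given per library, and of other lists up to 4 called genes with the smallest p. Some genes of those lists are not reported here. The same replicate numbers recur in all groups, and deviations from group means correlated in all 18 same-number pairs (r from 0.187 to 0.742). They did so too in the 12 pairs of replicate 2 with replicate 3 (r from 0.187 to 0.637), and every pair of replicate 1 with 2 or 3 was negative. These correlations set replicate 1 apart, and do not show that numbers 2 and 3 mark separate pairs. The number was also used as a block. A further fit, added after seeing the data, gave replicate 1 its own change with time. Alternatives were median-of-ratios scaling, quantile normalization, a minimum mean log2 value of 5, no variance trend, a GC and length trend removed, replicates 2 and 3 alone, and each library left out. The models were tested on simulated data. Promoter windows are RefSeq's (GRCm38.p6), found for 30 members in 31 windows. Protein sequences were not used here. Python 3.11.15 with pandas 2.3.3 and matplotlib 3.10.9 served for tables and plots.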

Additional observations from a re-analysis of the deposited data

Results flagged for a closer look

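Eci1, the mitochondrial enoyl-CoA isomerase, changed between 24 and 12 weeks by 1.47 ± 0.08 (SE) in replicates 2 and 3 and by 0.13 ± 0.11 in replicate 1, averaged over NASH and control. It is listed here because the difference between these changes, 1.34 on the log2 scale, passed limma's test (adjusted p = 0.00468), with all 4 libraries numbered 2 or 3 at 24 weeks above all 4 at 12 weeks.

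Decr2, the peroxisomal dienoyl-CoA reductase, was listed for the same reason. Its change was 0.97 ± 0.07 in replicates 2 and 3 and −0.23 in replicate 1, a difference of 1.20 (adjusted p = 0.00468). What sets replicate 1 apart is not in the labels, and its part in these differences was not tested.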

How the results depend on the processing

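No member changed sign among those called, under any alternative tried. Between NASH and control at 12 weeks, where 0 members were called, replicates 2 and 3 alone gave 1. With the replicate number as a block the count was 1, and it was 1 with quantile normalization or a minimum mean of 5, 2 with median-of-ratios scaling, 2 with replicates 2 and 3 alone, 0 without the variance trend (Acsl1 adjusted p = 0.0524) or with a GC and length trend removed (0.0938), and 0 to 2 with a library left out. The block left the count at 0 for NASH at 24 weeks, for the average and for the difference of the NASH effects, the last being 1 in replicates 2 and 3 alone with or without it. With a library left out under the block, the average gave 0 to 1. For 24 against 12 weeks the block changed no call over all libraries, while replicates 2 and 3 alone gave 16 in NASH mice (19 with the block) and 18 in control mice (20 with the block). Leaving out a library under the block gave 0 to 5 in NASH mice, with 5 where replicate 1 of the 24-week NASH group was dropped and 3 for that of the 12-week NASH group. It gave 0 to 9 in control mice, with 9 where replicate 1 of the 24-week controls was dropped and 3 for that of the 12-week NASH group.

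Of the 22 calls between the times in replicates 2 and 3, 16 held in every alternative, and left-out libraries gave 17 to 23. The difference from replicate 1 gave 0 calls without the variance trend and 2 to 4 with a library left out. Of the 25 calls for replicate 1, 18 held in every alternative and left-out libraries gave 20 to 26. At 24 weeks they gave 18 to 28 and at 12 weeks 8 to 17.

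Limits are few libraries per group, a replicate number that goes with the sex-linked RNAs and that the labels do not explain, and a single value per gene, which cannot separate transcripts, paralogs or strands. Over both times Eci1 (−0.57, adjusted p = 0.0489) lost its replicate call on leaving out any of the 24-week libraries (adjusted p up to 0.243).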
